A study of Mus musculus with 8 samples.

Results

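The collagen chain genes are the genes whose symbol has the form Col, a number, a and a second number, and 44 of the 33027 genes in the data have such a name. They were divided by textbook class into 11 fibrillar chains, 6 basement membrane chains (the type IV chains) and 27 other chains, and their levels were compared between the cell types of the mouse lung and between smoke and room air. The 8 libraries came from the right lungs of C57BL/6 mice that all carried Sftpc-CreERT2 and the mTmG reporter and all received tamoxifen at 8 to 10 weeks of age. The Sftpc promoter drives the Cre in alveolar type 2 (AT2) cells, so the allele marks those cells and is shared by both groups. Mice C2, C5, D2 and D5 breathed cigarette smoke (CS) for 10 months, 6 hours per day on 5 days per week, and mice F1, F3, M1 and M3 stayed in room air (RA). Cells were sorted on CD45 and remixed as 90% CD45-negative and 10% CD45-positive cells, so the numbers of each type reflect that mixture, the enzymatic digestion and the capture as well as the lung.

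Collagens are triple helices of 3 chains each. Fibrillar collagens (types I, III and V) form the tensile fibres of the lung's interstitium, airways and vessels. Type IV chains assemble into the sheet-like network beneath epithelium and endothelium, from the broadly used α1 and α2 chains or, in the alveolus, from α3, α4 and α5. The other chains include the beaded filaments of type VI, the fibril-associated types XII, XIV and XVI, the short-chain network of type VIII, the endostatin-releasing types XV and XVIII, and the transmembrane types XIII, XVII and XXIII.

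The type IV genes lie in head-to-head pairs, which is why the start regions of 2 such pairs are shown. In GRCm38, Col4a2 (chr8:11312805-11449287, plus strand) and Col4a1 (chr8:11198423-11312826, minus strand) are transcribed in opposite directions from RefSeq starts 21 bases apart. Their RefSeq windows (GRCm38.p6, 250 bases before to 50 after the start), chr8:11312555-11312854 for Col4a2 and chr8:11312777-11313076 for Col4a1, share 78 bases, printed in capitals and as complements of each other. Col4a6 and Col4a5, on chromosome X, have starts 1343 bases apart, and their windows chrX:141474027-141474326 (minus strand) and chrX:141475169-141475468 (plus strand) do not overlap. In these 2 windows the capitals mark the letters CCAAT and GGGCGG on either strand. CCAAT was found in 37.4% and GGGCGG in 35.7% of all 32851 RefSeq windows of the same length, and in 13 and 23 of the 38 windows of the 35 members that had one.
Col4a2: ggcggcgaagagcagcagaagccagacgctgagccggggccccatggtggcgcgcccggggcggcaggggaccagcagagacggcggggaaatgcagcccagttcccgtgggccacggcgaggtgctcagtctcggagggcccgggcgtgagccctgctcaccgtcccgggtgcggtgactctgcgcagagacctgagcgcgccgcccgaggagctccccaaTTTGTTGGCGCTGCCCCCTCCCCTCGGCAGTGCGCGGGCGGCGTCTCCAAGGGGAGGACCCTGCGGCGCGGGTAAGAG
Col4a1: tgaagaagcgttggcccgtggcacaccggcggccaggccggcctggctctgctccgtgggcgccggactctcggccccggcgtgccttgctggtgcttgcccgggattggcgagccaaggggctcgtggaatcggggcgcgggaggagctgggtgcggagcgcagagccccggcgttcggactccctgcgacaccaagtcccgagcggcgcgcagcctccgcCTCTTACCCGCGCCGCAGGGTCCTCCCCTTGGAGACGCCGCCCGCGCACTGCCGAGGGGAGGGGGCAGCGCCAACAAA
Col4a5: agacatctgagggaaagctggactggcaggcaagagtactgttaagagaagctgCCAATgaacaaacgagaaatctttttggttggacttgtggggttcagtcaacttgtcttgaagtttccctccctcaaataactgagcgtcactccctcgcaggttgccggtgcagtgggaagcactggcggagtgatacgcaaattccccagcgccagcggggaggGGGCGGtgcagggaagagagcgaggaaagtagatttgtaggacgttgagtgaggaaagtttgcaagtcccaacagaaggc
Col4a6: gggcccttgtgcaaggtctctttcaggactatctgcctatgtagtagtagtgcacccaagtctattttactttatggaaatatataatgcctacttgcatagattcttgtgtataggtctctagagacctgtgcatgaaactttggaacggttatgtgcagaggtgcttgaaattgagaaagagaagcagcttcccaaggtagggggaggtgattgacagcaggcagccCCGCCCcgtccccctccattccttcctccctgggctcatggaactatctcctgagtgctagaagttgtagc

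Levels are means over cells of transcripts per 10,000 unique molecular identifiers (UMIs) of the cell, taken per mouse and type in mice with at least 20 cells of the type, so n counts mice. A 3′ UMI counts a molecule whatever its length, but capture differs between genes, so each gene was compared across types and mice and genes were not ranked against each other. After multiplets and cycling cells were left out, 40074 cells of 32 types remained, with 31094695 to 52753531 UMIs per mouse. Of 40909 distinct barcodes, 197 occurred in more than 1 library. Marker genes were read for most of the types used here, but not for goblet, arterial, venous or peribronchial cells: Pdgfra and Tcf21 were highest in alveolar fibroblasts, Dcn in adventitial fibroblasts, Acta2 in smooth muscle cells, Pdgfrb in pericytes, Msln in mesothelium, Ager in alveolar type 1 (AT1) cells, and Gpihbp1 and Car4 in the capillary cells called gCap cells and aerocytes here. Ly6a and Il33 were not highest in adventitial fibroblasts, nor Ces1d in alveolar fibroblasts. The club cell marker Scgb3a2 was higher in goblet cells (246 against 89.6 per 10,000) and the aerocyte marker Tbx2 in pericytes (12.1 against 8.28). The sex labels of the 4 CS libraries went against their transcripts: C2 and C5, labelled male, had 7.18 and 7.44 Xist transcripts per 10,000 over all cells, while D2 and D5, labelled female, had 0.0461 and 0.0109 Xist and 0.692 and 0.827 Ddx3y. Sex entered no test, and by these transcripts each group held 2 mice with Xist and 2 with Ddx3y.

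All 6 basement membrane chains, 6 of the 11 fibrillar chains and 10 of the 27 others reached 1 transcript per 10,000 in some cell type with at least 2 such mice. Another 11 chains peaked between 0.1 and 1 in these 27 types, and the remaining 11 stayed under 0.1 in them. The other 5 types, each of 40 to 101 cells in all, were read only as means over the cells of all mice, and of the 11 only Col11a1 reached 0.1 in any of them. By the mean over mice, fibrillar and other chains were highest in sum in adventitial fibroblasts, and basement membrane chains in AT1 cells. For the other chains these mice overlapped alveolar fibroblasts (11.8 to 25.3 against 11.7 to 19.3). The summed level of all 44 chains was 69.4 ± 16.9 (SD, n = 8; 41.5 to 99.8) in adventitial fibroblasts. It was 50.3 ± 4.31 (SD, n = 8; 44.4 to 56.0) in AT1 cells and 36.6 ± 5.54 (SD, n = 8; 27.3 to 46.6) in alveolar fibroblasts, each overlapping the next. Types were named from expression, so differences between them are descriptions, given with the lowest and highest mouse.

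**Figure D1:**
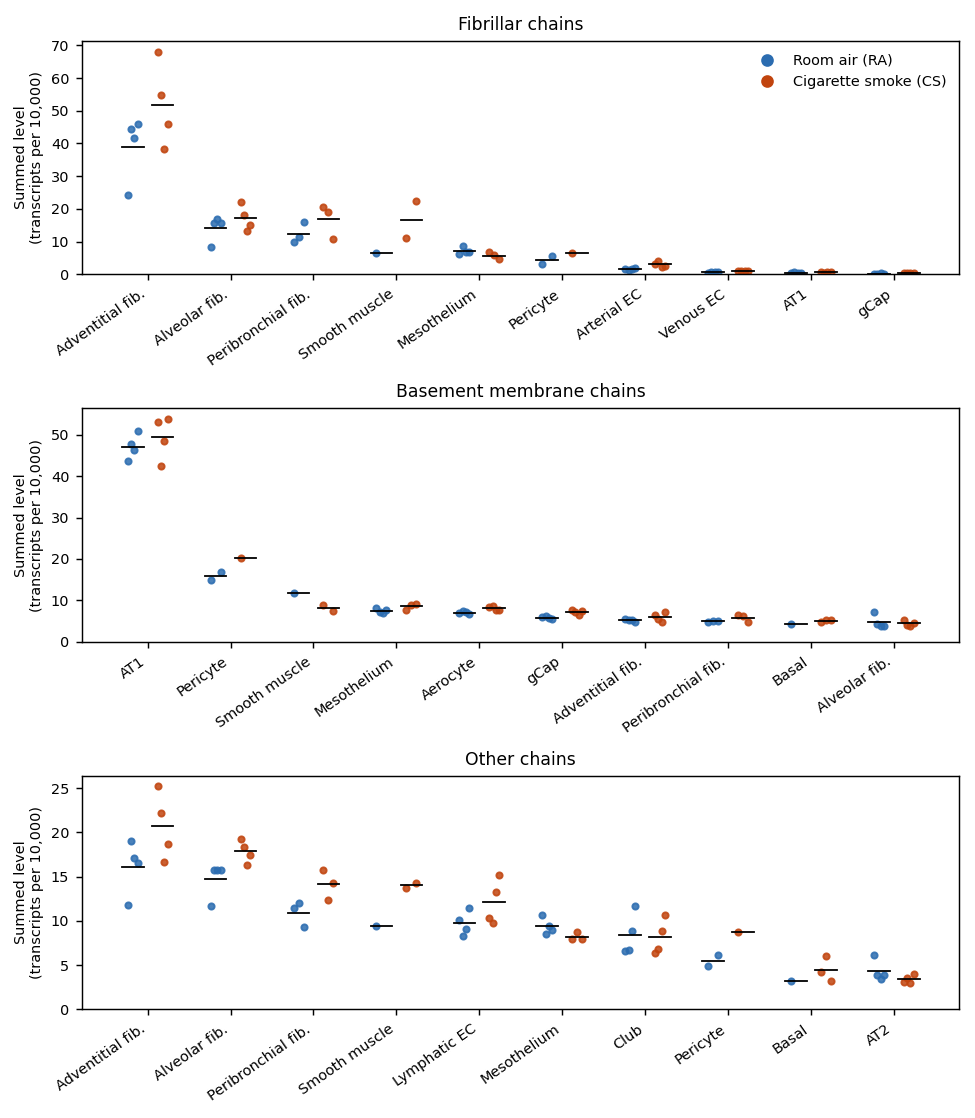
Summed level of fibrillar (top), basement membrane (middle) and other chains (bottom) in the 10 cell types with the largest sums among types with at least 3 mice of at least 20 cells (erythrocytes not drawn), in transcripts per 10,000. Each point is a mouse, black bars are group means, and adventitial fibroblasts lead the top and bottom panels while AT1 cells lead the middle panel.

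The chains of type I and type III collagen, the main fibres of the lung, were concentrated in adventitial fibroblasts. Col1a1, the α1 chain of type I, stood at 11.8 ± 3.59 (SD, n = 8; 6.83 to 18.8) in these cells and at 4.73 ± 1.16 (n = 8; 2.91 to 6.60) in alveolar fibroblasts, with no overlap between the mice. Col1a2, the α2 chain, behaved the same way at 16.6 ± 4.37 against 4.73 ± 1.25. For Col3a1, which forms homotrimers mixed into type I fibres, the next type was the peribronchial fibroblast, and 12.2 ± 4.00 (4.15 to 17.9) overlapped 5.16 ± 2.17 (n = 6; 2.89 to 7.96). Adventitial fibroblasts gave 61.3% ± 11.9 of the Col1a1 transcripts counted in a mouse, 67.7% ± 9.81 of Col1a2 and 54.6% ± 14.4 of Col3a1 (SD, n = 8), although they were only 1403 of the cells. Mesothelium, the lining of the lung surface, gave 23.9% ± 15.2 of Col3a1. The order of sources rests on the captured cell numbers.

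Type V chains, which co-assemble with type I and limit fibre diameter, were spread more widely. Col5a1 led in adventitial fibroblasts at 1.76 ± 0.304, followed by peribronchial fibroblasts at 1.19 ± 0.347. Col5a2 stood at 2.27 ± 0.576 in adventitial fibroblasts and next at 1.84 ± 0.913 in arterial endothelial cells, the ranges overlapping. In arterial endothelium its partner Col5a1 was 0.270, and of 5 fibroblast markers Dcn was the highest at 0.0869, against 76.6 in adventitial fibroblasts. Col27a1, a fibrillar chain best known from cartilage, was highest in peribronchial fibroblasts at 1.13 ± 0.388 and next in pericytes at 0.855 ± 0.431 (n = 3), while the 40 cells labelled DC_mature gave 1.50 over all cells (0 to 3.30 by mouse). The cartilage chains Col2a1 and Col11a1, and Col24a1, stayed under 0.1 in the 27 types, and Col11a2 peaked at 0.159 in cells labelled Mast. In the 84 cells labelled PNEC, 4 to 18 per mouse, Col11a1 was 0.981 over all cells (0.188 to 1.38 by mouse), and these cells gave 38.2% ± 14.9 of its 287 transcripts.

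The type IV chains are given by gene pair. Col4a3 and Col4a4, the α3 and α4 chains of the alveolar and glomerular network, were highest in AT1 cells and next in mesothelium: Col4a4 stood at 15.7 ± 1.61 (12.9 to 18.4) and 3.91 ± 0.444 (n = 7), and Col4a3 at 14.6 ± 2.13 and 1.44 ± 0.292. AT1 cells gave 72.4% ± 8.01 of Col4a3 and 58.9% ± 12.8 of Col4a4. Col4a1 and Col4a2, the ubiquitous pair, were highest in pericytes, the contractile cells wrapped around capillaries, at 9.49 ± 1.78 and 7.75 ± 0.883 (n = 3 mice with enough pericytes). AT1 cells came next at 6.14 ± 1.34 and 6.88 ± 1.10, then aerocytes at 4.52 ± 0.427 and 3.01 ± 0.286 and gCap cells at 3.96 ± 0.601 and 2.49 ± 0.243. For Col4a1 each of these neighbours overlapped the next, whereas for Col4a2 AT1 cells lay above aerocytes in every mouse. Because gCap cells were the most numerous type (9988 cells), they still gave the largest share of both, 30.1% ± 5.79 and 27.6% ± 4.80.

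Col4a5 and Col4a6, the X-linked pair, differed in their leading cells. Col4a5 was highest in AT1 cells at 4.46 ± 0.782 (3.13 to 5.40), above club cells, the secretory cells of the airway, at 2.27 ± 0.271 (1.80 to 2.66). Col4a6 was highest in smooth muscle at 2.29 ± 0.763 (n = 3), with basal cells at 1.95 ± 0.269 (n = 4) and club cells at 1.51 ± 0.384 inside overlapping ranges, and was found in 36.5% and 29.0% of AT1 cells in CS and RA. Across 27 cell types with at least 2 mice, the log2 levels within a pair ran together, with Pearson's r of 0.98 for Col4a1 with Col4a2, 0.98 for Col4a3 with Col4a4 and 0.92 for Col4a5 with Col4a6. These r values describe types that share libraries and carry no test. Chains of the same type outside the head-to-head pairs gave similar values, 0.99 for Col1a1 with Col1a2, 0.98 for Col6a1 with Col6a2 and 0.92 for Col5a1 with Col5a2. Lower values were 0.83 for Col6a1 with Col6a3 and 0.10 for Col8a1 with Col8a2. Chains of different collagen types gave 0.97 for Col1a1 with Col3a1 and 0.61 for Col15a1 with Col18a1.

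**Figure D2:**
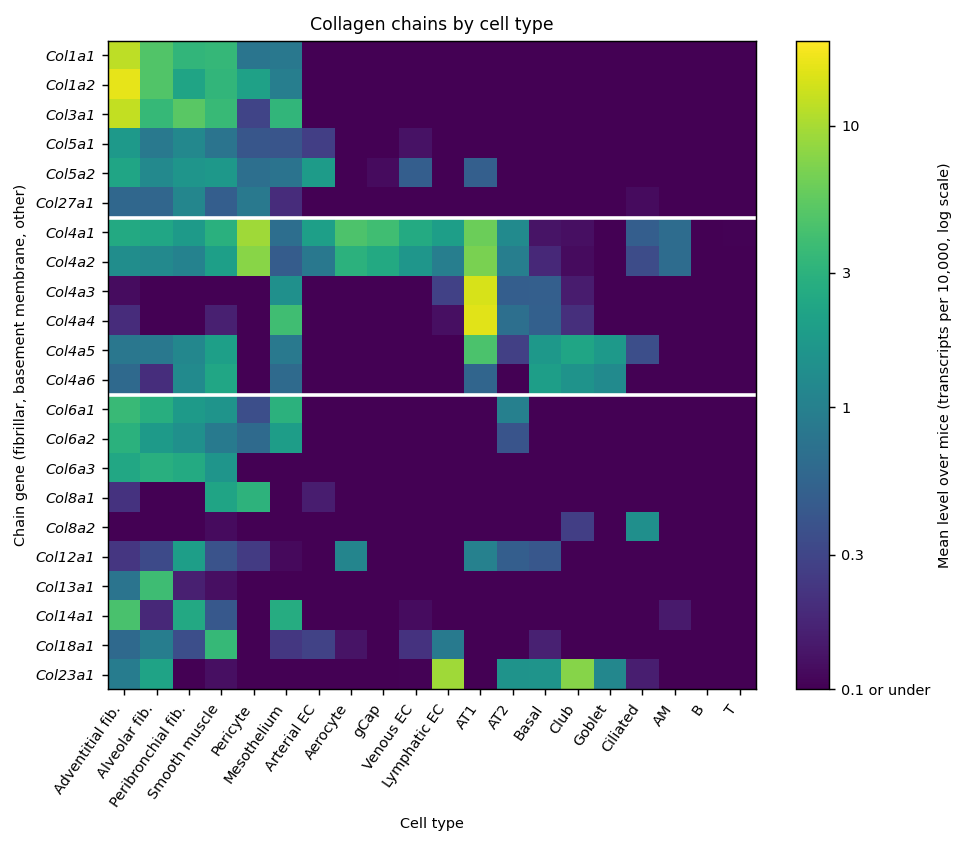
Mean level over mice (colour, transcripts per 10,000 on a log scale) of the 22 chains that reached 1 in some type, in 20 cell types, with white lines between fibrillar, basement membrane and other chains. The AT1 column stands out for Col4a3 and Col4a4, the first column for Col1a1, Col1a2 and Col3a1, and lymphatic endothelium and club cells for Col23a1.

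Among the other chains, the 3 subunits of the type VI beaded filament were shared by fibroblasts. Col6a1 stood at 3.63 ± 0.769 and Col6a2 at 2.97 ± 0.575 in adventitial fibroblasts, followed by mesothelium at 3.03 ± 0.696 and 1.92 ± 0.342. Col6a3 was highest in alveolar fibroblasts at 2.80 ± 0.833 and next in peribronchial fibroblasts at 2.56 ± 1.05, and stood at 0.0949 ± 0.0637 in mesothelium (n = 7). The ranges of the leading and the next type overlapped for each of the 3. Col14a1, a fibril-associated chain, reached 4.39 ± 1.61 in adventitial fibroblasts and 2.66 ± 0.390 in mesothelium. Col12a1, of the same subclass, was highest in peribronchial fibroblasts at 1.93 ± 1.08, then in aerocytes at 1.12 ± 0.284 and AT1 cells at 1.03 ± 0.271.

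Of the remaining chains, several were led by 1 type. Col13a1, a transmembrane collagen, was 3.85 ± 0.351 (3.51 to 4.50) in alveolar fibroblasts and 0.764 ± 0.143 (0.587 to 0.960) in adventitial fibroblasts. Col18a1, source of endostatin, was 3.47 ± 0.940 in smooth muscle (n = 3) against 0.943 ± 0.209 in alveolar fibroblasts. The short-chain pair split, with Col8a1 highest of the 27 types in pericytes at 3.10 ± 1.55 (n = 3), overlapping smooth muscle at 2.19 ± 0.527, and Col8a2 highest in ciliated cells at 1.39 ± 0.151 against 0.268 ± 0.0505 in club cells. The few PNEC-labelled cells held more Col8a1, 8.64 over all 84 cells and 4.37 to 11.6 by mouse, and gave 40.9% ± 11.7 of its 2916 transcripts. Ciliated cells gave 79.8% ± 5.99 of the Col8a2 transcripts and 73.1% ± 6.11 of those of Col26a1. Col17a1, the hemidesmosome collagen, peaked in basal cells, the stem cells of the airway, at 0.800 ± 0.211 (n = 4).

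Col23a1, another transmembrane collagen, had the highest level of all types in lymphatic endothelial cells and club cells. Lymphatic endothelium stood at 9.32 ± 2.28 (6.98 to 13.5) and club cells at 7.64 ± 2.03 (5.64 to 10.7), so these overlapped, and both lay above alveolar fibroblasts at 2.18 ± 0.505 (1.39 to 3.06). Club cells gave 61.0% ± 13.4 of its transcripts. In B cells, which should lack collagen, 1.69% of cells held a Col23a1 transcript against 81.5% of lymphatic endothelial cells, at median depths of 4055 and 5008 UMIs. Thinned to 2000 UMIs per cell, with 1488 CS and 1524 RA cells under that depth left out, 61.9% of lymphatic endothelial cells and 60.2% of club cells held it, and 93.6% of club cells did without thinning. Col4a1 was the most widespread chain in B cells, in 3.30% of them at 0.0825 per 10,000, and Col1a1 was in 0.430%.

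The smoke comparison asked which chains changed in which cells. The test was limma on log2(level + 1) with the mouse as replicate, run within each type on all genes detected in 10% or more of the cells of CS or RA mice, with Benjamini-Hochberg adjusted p-values called under 0.05. In 22 cell types tested, 29 of the 44 chains could be tested in 16 types, giving 152 chain and type pairs. The other 15 chains passed the filter in no type, and pericytes, smooth muscle, basal cells and the 5 small types were among those with too few cells (pericytes 45 in CS and 227 in RA). In 7 of the 152 pairs the chain was higher in CS and in 0 lower, where 1.27% of all 173532 gene and type pairs were called in either direction and 0.735% were called higher. At an unadjusted p under 0.05, 35 pairs were higher and 6 lower, where 8.89% of all pairs were higher and 6.29% lower. The filter let a pair enter through 1 group alone, which favours the direction of that group. Examples are Col4a6 in alveolar fibroblasts (10.2% of CS and 7.06% of RA cells) and Col8a1 in club cells (8.03% and 11.9%). A Wilcoxon test over single cells, which takes cells as replicates, called 28 higher and 7 lower, among them 4 of the 7, and called 4.92% of all pairs higher and 3.56% lower. It did not call Col4a6 in AT1 cells, Col5a2 in arterial cells or Col23a1 in adventitial fibroblasts after Bonferroni correction. The median difference over the 152 pairs was 0.058 on the log2 scale against 0.009 over all pairs. CS and RA mice did not overlap in 26 pairs, 23 of them with CS above, against 10.7% of all pairs. The smallest exact two-sided permutation p that 4 against 4 mice allow is 0.0286.

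Of these calls, 3 were in epithelium. Col4a6 in AT1 cells was 0.687, 0.587, 0.860 and 0.868 in the CS mice C2, C5, D2 and D5, and 0.311, 0.401, 0.471 and 0.324 in the RA mice F1, F3, M1 and M3. The lowest CS mouse lay above the highest RA mouse, and the difference was 0.34 ± 0.07 (log2, SE; adjusted p = 0.0116 by limma). Its partner Col4a5 rose in ciliated cells, from 0.212 to 0.302 in RA mice to 0.409 to 0.551 in CS mice, by 0.21 ± 0.03 (adjusted p = 0.0119, limma). In AT1 cells Col4a5 also lay higher in every CS mouse, 4.69 to 5.40 against 3.13 to 4.23, but did not pass the adjustment (0.34 ± 0.10, adjusted p = 0.0881, limma). Over all genes, 2.38% were called in AT1 cells and 4.66% in ciliated cells. The abundant AT1 chains did not pass the test: Col4a3 was 14.8 ± 1.88 in CS and 14.4 ± 2.63 in RA, and Col4a4 16.4 ± 1.57 and 14.9 ± 1.43 (SD, n = 4 each). Col4a1 (5.72 ± 1.33 and 6.57 ± 1.40; -0.17 ± 0.15, adjusted p = 0.584, limma) and Col4a2 (6.65 ± 1.31 and 7.11 ± 0.974; -0.09 ± 0.13, adjusted p = 0.756, limma) had lower means in CS and were lower in the CS mouse of all 4 lanes, and the Wilcoxon test over cells called Col4a1 and 3.26% of all genes lower.

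Col23a1 rose in the cells labelled goblet, for which no goblet marker was read and in which the club cell marker Scgb1a1 was 3440 against 3990 in club cells. Col23a1 was 1.42, 1.76, 1.50 and 2.12 in the CS mice and 0.279, 0.798, 0.847 and 0.663 in the RA mice, a difference of 0.72 ± 0.13 (adjusted p = 0.0391, limma), where 0.176% of genes were called. All CS mice were above all RA mice, and F1 was the lowest. Few goblet cells were captured in some mice, with 23 in C2, 25 in M3 and 40 in F1. Under the higher alternative limit on cells per mouse, too few RA mice remain for a test. Of all genes tested in goblet cells 69.9% were positive, as were 5 of the 9 chains. Club cells, with the higher Col23a1 level, ranged from 5.64 to 10.2 in CS and from 5.78 to 10.7 in RA mice. In 2 other epithelial types the mean was lower in CS without passing, 1.30 ± 0.208 against 1.75 ± 0.241 in AT2 cells (-0.26 ± 0.08, adjusted p = 0.598, limma) and 0.114 ± 0.0299 against 0.197 ± 0.0583 in ciliated cells (-0.10 ± 0.03, adjusted p = 0.0984, limma). The Wilcoxon test, which takes cells as replicates, called both lower, as it did 3.56% of all pairs over all types. Fibroblast markers in goblet cells were near 0 but not level, with the sum of 5 at 0.237 to 0.666 in CS and 0.0426 to 0.287 in RA mice. Their part in the result was not tested.

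The other 4 calls were in fibroblasts and endothelium. In adventitial fibroblasts, where 3.08% of genes were called, Col23a1 was 1.04 to 1.37 in CS mice and 0.597 to 0.810 in RA mice (0.36 ± 0.07, adjusted p = 0.0276, limma), and Col16a1, a fibril-associated chain, was 0.707 to 0.972 and 0.341 to 0.570 (0.30 ± 0.07, adjusted p = 0.0420, limma). With the lane, which held 1 mouse of each group, as a term, neither passed (adjusted p = 0.0838 and 0.102, limma). Of the 23 chains tested there, 20 had a positive difference, with a median of 0.210 against 0.005 over all 9519 genes, of which 52.2% were positive. RA mouse F1 was lower than the mean of the other RA mice for 19 of the 23, as it was for 55.1% of all genes. The median was -0.24 against -0.01 over all genes. The ratio of CS to RA in the summed level of all chains was 1.30 with all mice. It was 1.18 without F1, 1.18 without its lane mate C2, and 1.07 without both. F1 was the lowest RA and C2 the highest CS mouse, so leaving them out had to lower the ratio. Col5a2 rose in arterial endothelial cells, from 1.04, 0.969, 1.13 and 1.49 in RA mice to 3.14, 3.21, 1.52 and 2.22 in CS mice (0.68 ± 0.15, adjusted p = 0.0466, limma), where 0.661% of genes were called. The lowest CS value there, 1.52 in D2, lay close to the highest RA value. The sum of 5 fibroblast markers in these cells was 0.102 to 0.181 in CS and 0.0323 to 0.389 in RA mice, and that of 5 smooth muscle markers 0.411 to 1.82 and 0.0821 to 1.18. Whether smooth muscle transcripts had a part in the result was not tested. The Col5a2 difference was not confined to arterial cells. In venous endothelial cells it was 0.571 to 0.759 in CS and 0.208 to 0.420 in RA mice, without passing (0.33 ± 0.06, adjusted p = 0.0950, limma). The Wilcoxon test over cells called the venous pair higher, as it did 4.92% of all pairs over all types.

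Col4a1 in gCap cells was 4.69, 4.53, 4.01 and 4.67 in CS mice and 3.52, 3.65, 3.32 and 3.27 in RA mice, a difference of 0.30 ± 0.08 (adjusted p = 0.0407, limma), in a type where 10.8% of genes were called. With the lane as a term the adjusted p was 0.0915 (limma). Col4a2, in the same cells, was 2.34 to 2.77 and 2.15 to 2.53 and did not pass (0.13 ± 0.07, adjusted p = 0.197, limma). The ratio of Col4a1 to Col4a2 in gCap cells was 1.66 to 1.71 in the CS mice and 1.45 to 1.52 in the RA mice, a contrast chosen after the values were seen and not tested. In aerocytes Col4a1 lay at 4.57 to 5.09 in CS and 3.92 to 4.38 in RA mice, without overlap and without passing (0.18 ± 0.08, adjusted p = 0.198, limma).

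**Figure D3:**
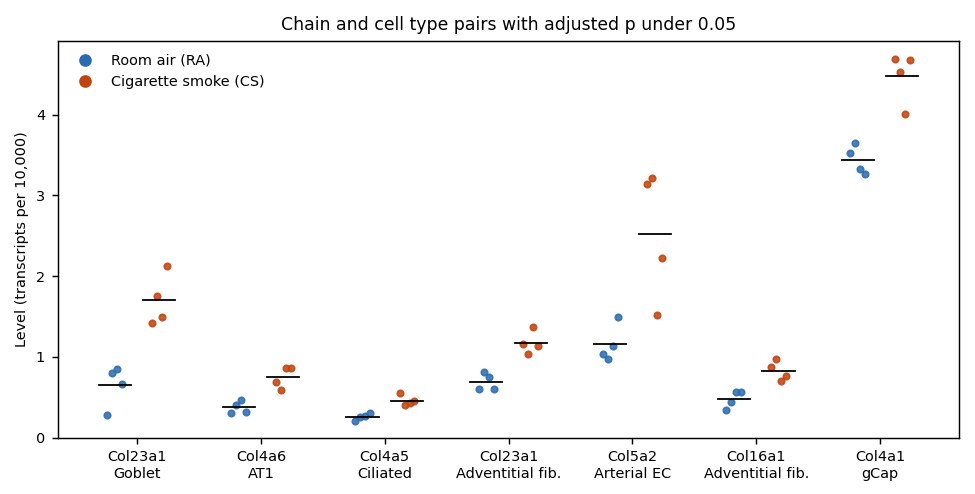
Level (transcripts per 10,000) of the 7 chain and type pairs with an adjusted p under 0.05. Each point is a mouse and black bars are the means of 4 mice, and in every pair the 4 CS mice lie above the 4 RA mice.

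Over all genes, the differences between CS and RA ran with the length of the gene. In all 22 types the median difference between CS and RA was higher for genes spanning over 200 kb than for genes of up to 10 kb. In adventitial fibroblasts it went from -0.047 to 0.163, with 0.279% and 12.0% of genes called higher, and in gCap cells from -0.072 to 0.170. Single chains did not order by span. In adventitial fibroblasts the difference was 0.54 for Col6a3 (78.0 kb), 0.52 for Col3a1 (38.2 kb), 0.36 for Col23a1 (294 kb) and 0.16 for Col14a1 (213 kb). Of the 7 called pairs, 6 were of genes over 100 kb, namely Col4a6 (309 kb), Col23a1 (294 kb, 2 pairs), Col4a5 (214 kb), Col5a2 (129 kb) and Col4a1 (114 kb), while Col16a1 spans 51.4 kb. Most of the 152 tested pairs were also of genes over 100 kb, so this count alone gives no result about length. Over all types 2.20% of genes above 100 kb were called higher and 0.465% of shorter genes, and 26 of the 44 chains exceed 100 kb. UMIs of unspliced transcripts were kept by the authors, and their part in these differences was not tested. When each difference was taken relative to genes of similar span, a setting chosen after seeing the data that called 0.715% of all pairs, the 3 epithelial pairs still passed: Col4a6 in AT1 cells (0.29, adjusted p = 0.0160), Col4a5 in ciliated cells (0.16, adjusted p = 0.0185) and Col23a1 in goblet cells (0.62, adjusted p = 0.0355, all limma). The fibroblast and endothelial pairs did not, with 0.19 for Col23a1 and 0.28 for Col16a1 in adventitial fibroblasts, 0.60 for Col5a2 in arterial cells and 0.17 for Col4a1 in gCap cells.

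**Figure D4:**
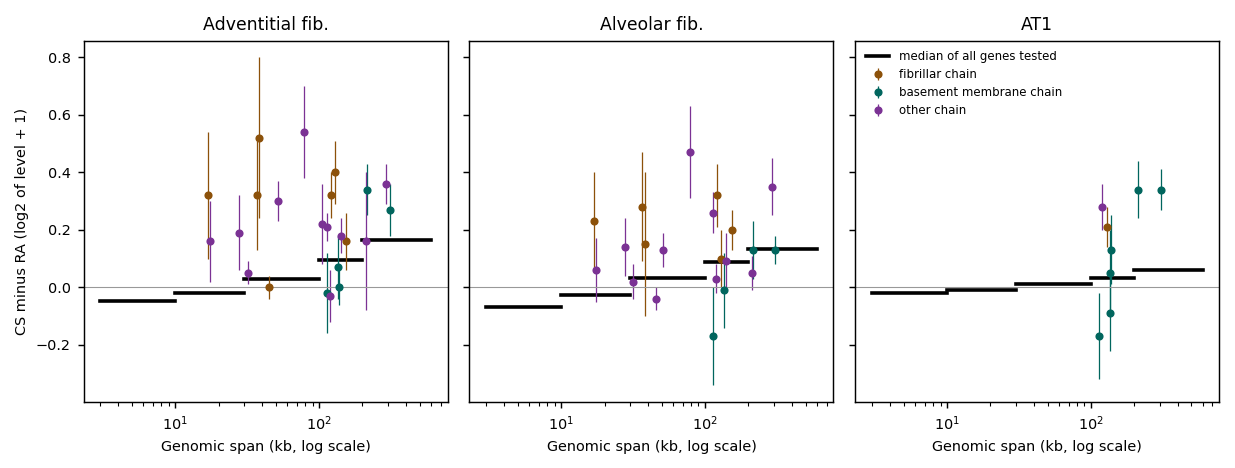
Difference between CS and RA (log2 of level + 1; bars, standard error) of each tested chain against the genomic span of its gene (kb, log scale) in adventitial fibroblasts, alveolar fibroblasts and AT1 cells. Black lines give the median of all genes tested in 5 span classes, the outer classes drawn to arbitrary ends, and rise from -0.047 to 0.163 in adventitial fibroblasts.

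The abundant fibrillar chains did not pass by limma in any fibroblast type. In adventitial fibroblasts the Wilcoxon test, which takes cells as replicates, called 10 of 23 chains higher and 0 lower, among them Col1a1, Col1a2 and Col3a1. Over all types it called 4.92% of all pairs higher. Its share over all genes in adventitial fibroblasts was not read, so the 10 of 23 cannot be set against that type's own share. In adventitial fibroblasts Col1a1 was 18.8, 14.2, 9.03 and 11.0 in the CS mice and 6.83, 12.2, 10.1 and 11.9 in the RA mice (0.32 ± 0.22, adjusted p = 0.404, limma). Col3a1 was 17.9, 15.8, 10.7 and 12.4 in CS mice and 4.15, 12.3, 12.2 and 12.0 in RA mice (0.52 ± 0.28, adjusted p = 0.293, limma). C2 was high and F1 low for both, and the remaining mice overlapped. C2 and F1 shared a lane. Summed fibrillar chains in adventitial fibroblasts were 51.7 ± 12.8 in CS and 39.1 ± 9.93 in RA mice, a ratio of 1.32. The ratio was 1.18 without F1, 1.19 without C2 and 1.05 without both (46.3 ± 8.37 and 43.9 ± 2.06). C2 was the highest CS mouse and F1 the lowest RA mouse, so leaving them out had to lower the ratio. No other lane was left out for these sums. In alveolar fibroblasts the ratio was 1.21 with all mice, 1.06 without F1, 1.09 without C2 and 0.959 without both, under the same limit.

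Chains with larger relative differences in the fibroblasts also fell short of the threshold. Col6a3 in adventitial fibroblasts was 2.98 ± 0.331 in CS and 1.79 ± 0.645 in RA mice, with F1 lowest at 0.883 (0.54 ± 0.16, adjusted p = 0.0770, limma), and Col5a2 was 2.32 to 3.15 and 1.46 to 2.07 (0.40 ± 0.11, adjusted p = 0.0627, limma). Neither overlapped. In alveolar fibroblasts 0 of 21 chains passed by limma, where 1.55% of genes were called. There 7 chains had an unadjusted p under 0.05, all of them positive, where 11.1% of all genes had such a p and were higher. Of these, Col4a6 passed the detection filter only through CS, in 10.2% of CS and 7.06% of RA cells, which favoured its direction. The Wilcoxon test over cells called 8 higher and 1 lower there, and 7.31% and 6.92% of all genes. The largest differences there were Col6a3 (3.36 ± 0.248 against 2.23 ± 0.842; 0.47 ± 0.16), Col23a1 (2.56 ± 0.337 against 1.79 ± 0.303; 0.35 ± 0.10) and Col27a1 (0.745 ± 0.284 against 0.394 ± 0.156; 0.32 ± 0.11). Col18a1 lay at 1.01 to 1.21 in CS and 0.604 to 0.859 in RA mice (0.26 ± 0.07, adjusted p = 0.0727, limma). In AT1 cells Col12a1 was 1.11 to 1.51 in CS and 0.650 to 1.08 in RA mice (0.28 ± 0.08, adjusted p = 0.0816, limma). Among peribronchial fibroblasts, with 3 mice a group, Col27a1 (1.13 to 1.64 against 0.601 to 0.987) and Col4a5 (1.27 to 1.49 against 0.658 to 1.26) did not overlap, with adjusted p of 0.571 and 0.641 by limma.

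In mesothelium the direction of the tested chains differed by class, and none passed. Of its 22 chains 14 were negative, as were 49.9% of all genes, and the median difference was -0.008 against 0.000 over all genes. Negative were 5 of 6 fibrillar and 8 of 10 other chains, while 5 of 6 basement membrane chains were positive. Among the negative other chains, Col6a3 was found in under 10% of CS cells. It passed the detection filter only through RA, which favoured its direction. Limma called 0, where 0.307% of all genes were called. Of the 4 with an unadjusted p under 0.05, only Col4a6 was positive (0.754 ± 0.0771 against 0.521 ± 0.121), where 13.8% of all genes had such a p. The Wilcoxon test over cells called 2 lower, Col6a1 and Col6a2, and 4.54% of all genes. That test did not call Col1a1 or Col1a2. Col1a1 was 0.484, 0.740 and 0.465 in C5, D2 and D5, against 0.895, 1.46, 0.841 and 0.922 in the RA mice (-0.37 ± 0.10, adjusted p = 0.175, limma), and it passed with the lane as a term (-0.40, adjusted p = 0.0351, limma). Col1a2 was 0.561 to 0.923 and 0.932 to 1.44 (-0.36 ± 0.10, adjusted p = 0.175, limma), and Col6a1 2.36 to 2.71 and 2.77 to 4.42 (-0.29 ± 0.12). Col4a4 went the other way, at 3.74 to 4.60 against 3.47 to 3.72 (0.18 ± 0.09, adjusted p = 0.422, limma). C2 had only 9 mesothelial cells and did not enter. The sum of 5 fibroblast markers in mesothelium, which expresses Dcn itself, was 29.2 to 36.7 in CS and 34.8 to 48.1 in RA mice, most of it Dcn, while 3 of the 5 had a higher mean in CS, and their part in the lower type I chains was not tested.

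The genes that process, bind and sense collagen were read from 5 lists. Of 24 processing and cross-linking genes, all tested, 10 of 213 gene and type pairs were lower and 1 higher in CS, where 0.537% and 0.735% of all pairs were, with a median difference of -0.030. Serpinh1, which encodes HSP47, the chaperone of procollagen in the endoplasmic reticulum, made up 6 of the 10. In mesothelium it was 4.08, 3.77 and 3.23 in CS mice and 9.89, 8.10, 12.2 and 13.9 in RA mice (-1.34 ± 0.16, adjusted p = 0.0134, limma). In adventitial fibroblasts it was 6.07 ± 1.16 against 12.9 ± 3.06 (-0.96 ± 0.17, adjusted p = 0.0214, limma) and in alveolar fibroblasts 2.91 ± 0.321 against 6.62 ± 1.17 (-0.95 ± 0.13, adjusted p = 0.00501, limma). It also fell in aerocytes, gCap cells and arterial endothelium, and its difference was negative in all 14 types in which it was tested. AT1 cells, the main source of Col4a3, gave 2.37 ± 0.321 and 2.56 ± 0.631 (-0.07 ± 0.12, adjusted p = 0.812, limma). Serpinh1 spans 7.86 kb, and relative to genes of similar span it passed in 5 of the 6 types, with gCap cells at an adjusted p of 0.0657 by limma.

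**Figure D5:**
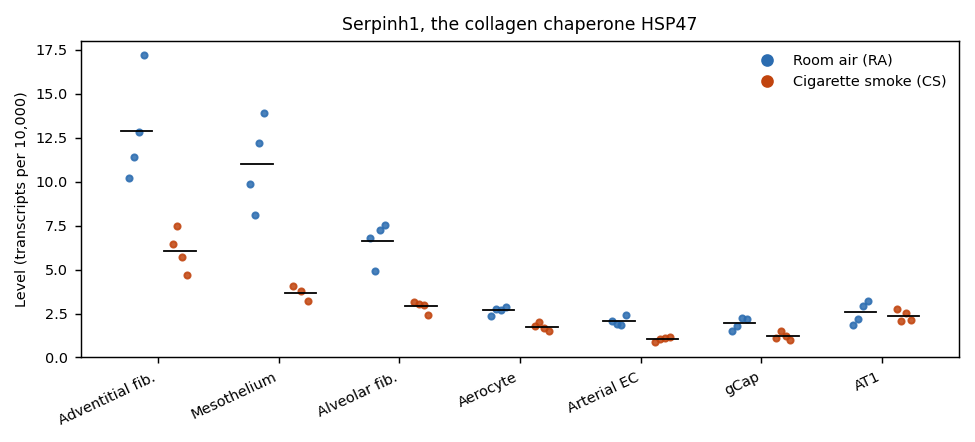
Level of Serpinh1 (transcripts per 10,000) in 7 cell types, with a point per mouse and black bars for the group means. All CS mice lie below all RA mice in the first 6 columns, narrowly in gCap cells (1.51 against 1.53), and the groups overlap in AT1 cells.

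Serpinh1 is also a heat-shock gene, so other heat-shock genes were read beside it, chosen after its values were seen. Hspa8, the constitutive HSP70, was lower in CS in alveolar fibroblasts (6.09 ± 0.539 against 10.1 ± 2.05; -0.63 ± 0.15, adjusted p = 0.0493, limma) and in AT1 cells (4.92 ± 0.750 against 11.1 ± 2.69; -1.01 ± 0.15, adjusted p = 0.00249, limma). It also passed as lower in aerocytes (-0.98 ± 0.12), gCap cells (-0.96 ± 0.11) and arterial endothelium (-0.84 ± 0.15). In adventitial fibroblasts (-0.66 ± 0.17) and mesothelium (-0.61 ± 0.15) it did not pass. Hsp90aa1 passed as lower in aerocytes and gCap cells, Hspe1 in aerocytes and Dnajb1 in gCap cells. Hspa1a, Hspa1b and Hsph1 passed in none of the types read. The stress-induced Hspa1a gave 14.4 ± 9.77 and 14.5 ± 9.88 in alveolar fibroblasts and 10.5 ± 4.25 and 8.70 ± 4.98 in adventitial fibroblasts. Whether a heat-shock response, in the lung or during digestion, has a part in the Serpinh1 difference was not tested. Among the other processing genes, P4ha2, a prolyl hydroxylase subunit, fell in ciliated cells (0.165 ± 0.0376 against 0.565 ± 0.0740; -0.43 ± 0.04, adjusted p = 0.000709, limma) and gCap cells (-0.24 ± 0.05, adjusted p = 0.0306, limma). The lysyl hydroxylases Plod1 and Plod3 fell in ciliated cells by 0.09 each (adjusted p = 0.0391 and 0.0377, limma). Adamts2, which removes the amino propeptide of fibrillar procollagen, rose in alveolar fibroblasts (2.18 ± 0.143 against 1.45 ± 0.199; 0.38 ± 0.08, adjusted p = 0.0437, limma). Relative to genes of similar span Adamts2 (adjusted p = 0.120) and Plod3 (0.0547) did not pass by limma.

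In the other lists the calls were all higher in CS, where 0.735% of all pairs were called higher. Of the collagen receptors 8 of 9 were tested and 4 of 77 pairs passed: Mrc2, an endocytic receptor that takes up collagen fragments, in alveolar fibroblasts (4.40 ± 0.532 against 2.84 ± 0.423), AT1 cells and adventitial fibroblasts, and Ddr1, a collagen-activated kinase, in alveolar fibroblasts (0.643 ± 0.0681 against 0.326 ± 0.0477). Of the fibril-binding genes 2 of 83 pairs passed, Thbs1 (13.8 ± 1.94 against 7.92 ± 1.56; 0.73 ± 0.15) and Fn1, fibronectin (11.3 ± 1.64 against 6.83 ± 0.555; 0.64 ± 0.13), both in alveolar fibroblasts with an adjusted p of 0.0303 by limma. Of the TGF-beta list 9 of 10 genes were found and 3 of 93 pairs passed: Tgfb2 in AT1 cells, at 2.26 ± 0.194 against 0.972 ± 0.297 (0.74 ± 0.10, adjusted p = 0.00124, limma), Tgfb2 in adventitial fibroblasts (0.39 ± 0.09), and Tgfb3 in adventitial fibroblasts (0.40 ± 0.08). The basement membrane partners gave 2 of 123, the laminin chains Lamb2 in gCap cells (0.14 ± 0.04) and Lama3 in ciliated cells (0.12 ± 0.03). Relative to genes of similar span 6 of these 11 calls passed, and the 5 that did not were Mrc2 in adventitial (adjusted p = 0.0547) and alveolar fibroblasts (0.0864), Fn1 (0.0581), Tgfb2 in adventitial fibroblasts (0.0948) and Lama3 (0.0712, all limma).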

How the data were processed

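The authors digested the lungs, prepared 10x 3′ v3 libraries, aligned reads with STAR 2.7.3a to GRCm38.p6, kept spliced and unspliced UMIs, removed free RNA with SoupX, filtered cells and named types. The deposited matrix holds expected counts (UMI estimates after that removal, 1.28% of values whole within 1e-06), and the authors' cell table holds counts per cell and percent values. No count model was used because the counts are not whole. Each cell was scaled to 10000 transcripts and averaged per mouse and type. Differences were tested with limma 3.58.1 (R 4.3.3; trend; pseudocount 1; at least 20 cells per mouse, 3 mice per group, genes in 10% of cells), a step tested on simulated data. Gene spans came from GENCODE M21, matching 32507 of 33027 genes. The members, gene lists and comparisons were chosen with earlier results of these data known. Chains named are those called, those reaching 1 in a type, the 3 largest differences in leading types and in gCap and AT1 cells, and those not overlapping at a level of 1. Col2a1, Col11a1, Col11a2, Col17a1, Col24a1 and Col26a1 were named after their values were seen. Littermates were assigned to exposure at random, per the study's methods, and the labels put 1 CS and 1 RA mouse in each of lanes 1 to 4. Deviations of lane mates from their group means correlated by -0.27 to 0.39 over adventitial fibroblasts, gCap and AT1 cells, and the lane was an alternative term only. Doublets were those the authors labelled multiplets. Sequences are from RefSeq. No protein sequences were used here.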

Additional observations from a re-analysis of the deposited data

Results flagged for a closer look

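In groups of 4 mice, a mouse was marked where its gap to the nearest other mouse exceeded Dixon's 95% critical value. Of 46 groups checked, 4 held such a mouse, where chance alone marks about 1 in 20 groups, or 2.30 of 46. RA mouse F1 gave 2 of the 4. Its Col3a1 level in adventitial fibroblasts was 4.15, below 12.0 to 12.3 in the other RA mice, and its summed fibrillar level in alveolar fibroblasts was 8.42, below 15.6 to 17.0. In adventitial fibroblasts all 7 fibrillar chains tested were lower in F1 than in the mean of the other RA mice, as were 55.1% of all genes. The median log2 difference was -0.28 against -0.01 over all genes. In alveolar fibroblasts 5 of 6 fibrillar chains were lower in F1, as were 53.0% of all genes, but the 4 basement membrane chains had a median of 0.30. CS mouse C5 had 3.06 Col23a1 transcripts per 10,000 in alveolar fibroblasts, above 2.33 to 2.44 in the other CS mice. CS mouse D2 had 2.34 for Col4a2 in gCap cells, below 2.72 to 2.77.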

How the results depend on the processing

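The count of 7 chain and type pairs called between CS and RA was 5 to 8 with a pseudocount of 0.1, summed counts, means of log values, at least 50 cells per mouse, median scaling, the lane as a term or no trend. It was 14 with genes in at least 25% of cells, 0 with no filter on detection (893 pairs tested, 78 with an unadjusted p under 0.05), 3 with adjustment over all cell types and 3 relative to genes of similar span. A Wilcoxon test over single cells, which treats the cells of a mouse as replicates, called 35 of 152 pairs (28 higher, 7 lower), among them 4 of the 7, where it called 4.92% of all pairs higher and 3.56% lower. Leaving out a mouse gave 2 to 5, with 2 without C2 or D5, 3 without C5 or M3, and 4 without F1 or M1. The cause was not tested. Col4a6 in AT1 cells and Col4a5 in ciliated cells passed with a pseudocount of 0.1, summed counts, the lane as a term, median scaling and relative to span, and in all 8 fits with a mouse left out, with adjusted p of 0.0103 to 0.0482 and 0.00989 to 0.0463 by limma, but neither passed with no filter on detection, and Col4a6 did not pass the Wilcoxon test over cells. With a mouse left out, Col23a1 passed in 2 of 8 in goblet cells and 4 of 8 in adventitial fibroblasts, Col5a2 in arterial cells in 2, and Col16a1 in adventitial fibroblasts and Col4a1 in gCap cells in 1 each. With counts summed over cells, Col4a5 (0.42) and Col12a1 (0.34) in AT1 cells also passed, with adjusted p of 0.0450 and 0.0237 by limma. For 21 of the chain and type pairs named, alternatives were run one by one, and none of these 273 fits turned the direction. These pairs had been named for a call, a large difference or no overlap, which favours that outcome. Where CS and RA mice do not overlap, leaving out a mouse cannot turn the direction, so this count is no test of stability. The 5 pairs called with the lane as a term were 4 of the 7 and Col1a1 in mesothelium, which was lower in CS; the labels give the mice no other pairing. Fewer than 20 cells per mouse kept pericytes and smooth muscle untested.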
